A study of Mus musculus with 12 samples.

Results

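Aged microglia sorted by phosphorylated ERK1/2 were compared for 9 genes of eicosanoid and phospholipid signalling, taken by name from the 770 genes of the nCounter Neuroinflammation panel. They are the phospholipases A2 *Pla2g4a* and *Pla2g5*, the phospholipases D *Pld1* and *Pld2*, the cyclooxygenase *Ptgs2*, the synthases *Hpgds* and *Ltc4s*, and the prostaglandin E2 receptors *Ptger3* and *Ptger4*. *Ptgs2*, *Pld1* and *Pld2* were higher in aged P-ERK1/2 High microglia than in aged P-ERK1/2 Low microglia, and the other 6 genes were not called between them with the deposited scaling. Of all 770 genes, 28.2% were called higher there, so 3 of 9 is near the share of the panel. Scaling to the total count ended the calls of *Pld1* and *Pld2*. For *Pld1*, 0 of 4 P-ERK1/2 Low samples were above the background of the negative control probes. The rise of *Ptgs2* was 4.29-fold, a difference of 2.10 ± 0.33 (SE, limma) in log2(value + 1) between groups of 4 samples.

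Eicosanoids are short-lived lipid signals made on demand. A phospholipase A2 frees arachidonic acid from membrane phospholipids, cyclooxygenases turn it into prostaglandin H2, and terminal synthases such as the one encoded by *Hpgds* make the individual prostaglandins, while leukotriene C4 synthase, encoded by *Ltc4s*, belongs to the separate lipoxygenase branch. Prostaglandin E2 then acts on cells through EP receptors, of which EP4 raises cyclic AMP and EP3 mostly lowers it. In the brain, cyclooxygenase-2 is found in neurons and can be induced in microglia by inflammatory stimuli, and hematopoietic prostaglandin D synthase is a microglial enzyme. Cytosolic phospholipase A2, the product of *Pla2g4a*, is itself a substrate of ERK1/2.

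RNA was measured in 12 samples of microglia from C57B6 mice, each pooled from the CNS of a male and a female, by the NanoString nCounter, which counts RNA molecules with color-coded probes and no amplification. The aged mice were over 80 weeks old and gave 4 P-ERK1/2 High and 4 P-ERK1/2 Low samples, sorted on the phosphorylation of ERK1/2 at Thr202/Tyr204 and called High and Low from here on. The adult mice were 12 to 20 weeks old and gave 4 samples that were not split by P-ERK1/2, of which adult sample 11, labelled as excluded for poor quality, was kept out of the comparisons. The labels call all mice untreated, whereas the study's legend places a Tamoxifen treatment shortly before sampling in the adult mice and long before it in the aged ones. According to the methods the sorted cells were fixed, permeabilized, CD45 intermediate, Ly6G- and positive for a YFP reporter under the *Cx3cr1* promoter. The P-ERK1/2 state of the adult samples is not given. The step from adult to aged therefore cannot be told apart from the split itself in either aged group.

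Total counts over the panel were 650965 to 1539936 in High, 123798 to 157209 in Low and, for the 3 kept adult samples, 137980 to 326575. The deposited values were scaled to 13 housekeeping genes, and the factors that do this were 0.715 to 1.27 in High and 2.68 to 4.10 in Low. The same count therefore became a higher value in Low. The background, the mean plus 2 SD of the 8 negative control probes, was 26.1 to 39.5 in the units of the values in High, 69.2 to 117 in Low and 37.9 to 95.1 in adult. The summed values of 8 microglia markers were 2851 to 3544, 3371 to 3692 and 3487 to 3801 in the same order, and the largest part was *Csf1r*, the gene of the receptor for colony stimulating factor 1, at 1195 to 1838, 2602 to 2937 and 1655 to 2053. Of the 8 markers, 4 were called higher and 0 lower in High against Low (*P2ry12*, *Tmem119*, *Sall1* and *Gpr34*), with a median log2 change of 0.94, where 28.2% of all 770 genes were called higher by limma at p under 0.01 and a log2 change beyond 1. In Low against adult, 0 were called higher and 3 lower (*Tmem119*, *Fcrls* and *Olfml3*), with a median of -0.81, where 2.73% of all genes were called lower. In High against adult, 1 was called higher and 2 lower, with a median of 0.64, beside 29.2% and 7.66% of all genes. In Low, *P2ry12* was above background in 0 of 4 samples and *Tmem119* in 1 of 4. In these pooled samples, fewer cells of a type and less RNA per cell cannot be told apart, and the p-values measure the spread between samples alone.

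Across the 9 genes and 11 compared samples, 54 of 99 values were above background. *Ptgs2*, *Hpgds* and *Pla2g4a* were above background in 11 of 11 samples, *Pld2* in 9, *Ptger4* in 6 and *Pld1* in 5. *Ptger3* was above background in 1 sample, and *Ltc4s* and *Pla2g5* in 0. Another floor, the second highest count among 10 genes of other lineages in each sample, was passed by 67 of 99 values, with *Ptgs2*, *Hpgds* and *Pld2* above it in 11 samples, *Pla2g4a* in 10, *Ptger4* in 7, *Pld1* and *Pla2g5* in 6, *Ltc4s* in 3 and *Ptger3* in 2. For *Ptger3*, *Ltc4s* and *Pla2g5* the differences below describe values near or under the noise of the assay. The probes differ in efficiency, so levels were compared between samples for each gene and not between genes.

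**Figure D1:**
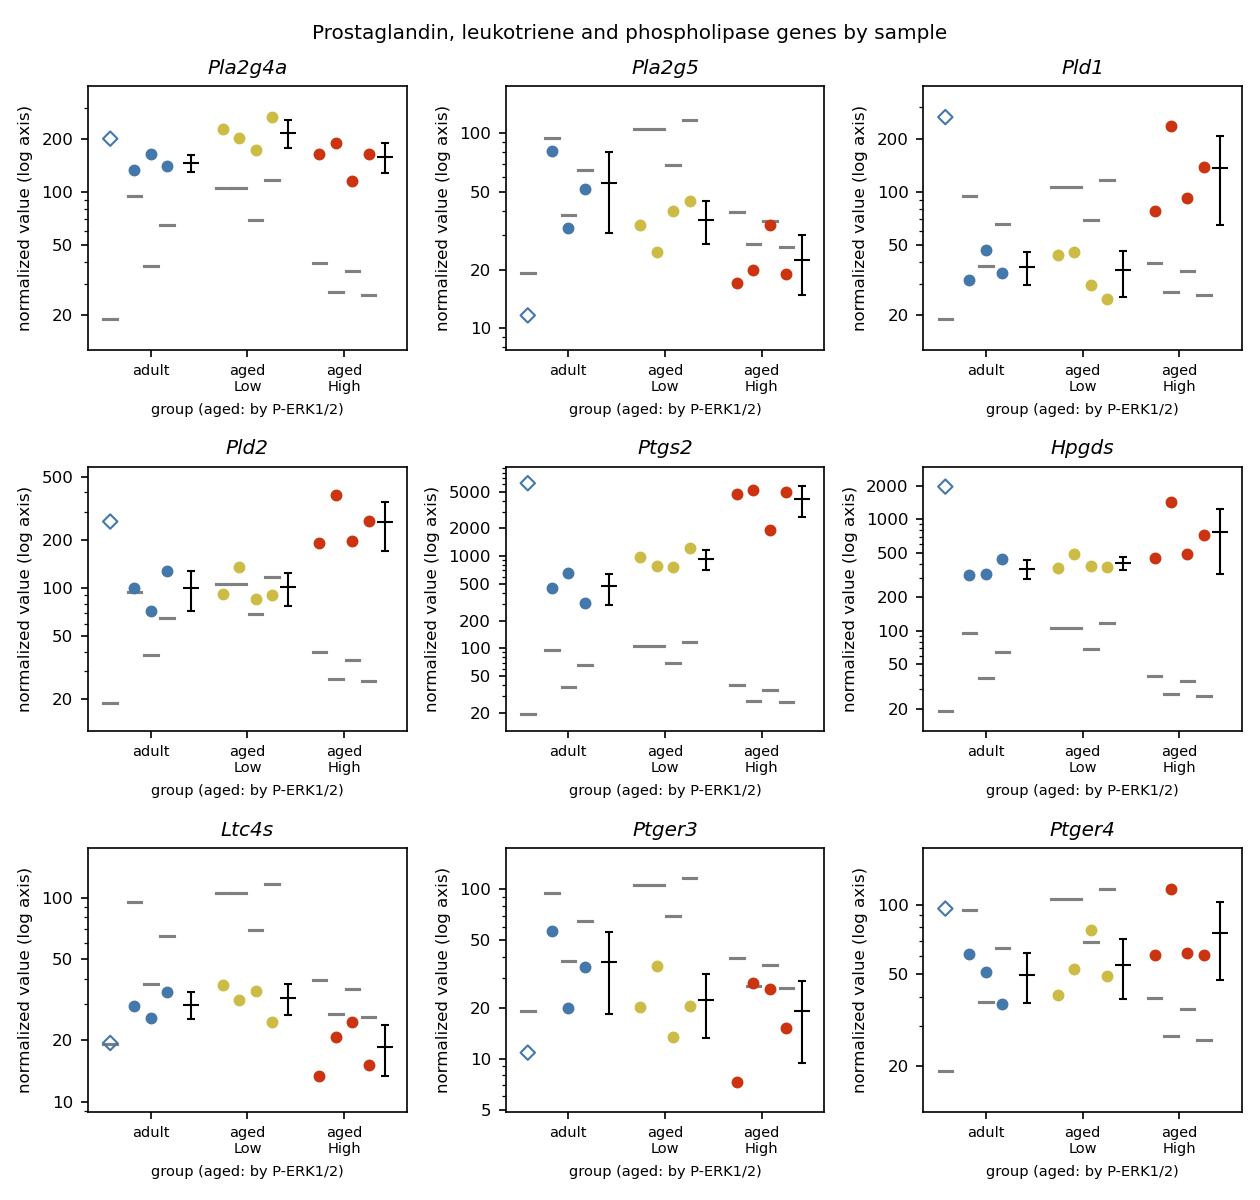
Normalized values of the 9 genes (log axis) in each sample, with adult in blue, aged Low in yellow and aged High in red. Black marks give the mean ± SD of each group, grey ticks the background of each sample, and the open diamond adult sample 11, which was left out of the means. The 4 High samples of *Ptgs2* (1938 to 5286) lie above all others compared, and *Ltc4s* and *Pla2g5* lie under the grey ticks of every sample compared.

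The promoters of 4 genes are shown, the 3 that rose in High and *Pla2g4a*, which is the next protein-coding gene to *Ptgs2* on chromosome 1 with 0 protein-coding genes between them. Each is the RefSeq window of 300 bases around 1 annotated start site, in build GRCm38.p6, running 5′ to 3′ on the gene's strand. Where RefSeq's windows held 2 start sites of a gene, the upstream one was taken. For *Pld1* and *Pld2* that site lies inside the annotated gene, which begins at base 27938459 of chromosome 3 and base 70539492 of chromosome 11. Capitals mark matches on either strand to the letters or sites named after the sequences. *Ptgs2* lies at chr1:150099781-150100080 on the plus strand, *Pla2g4a* at chr1:149961241-149961540 on the minus strand, *Pld1* at chr3:27938430-27938729 on the plus strand and *Pld2* at chr11:70539814-70540113 on the plus strand.
Ptgs2: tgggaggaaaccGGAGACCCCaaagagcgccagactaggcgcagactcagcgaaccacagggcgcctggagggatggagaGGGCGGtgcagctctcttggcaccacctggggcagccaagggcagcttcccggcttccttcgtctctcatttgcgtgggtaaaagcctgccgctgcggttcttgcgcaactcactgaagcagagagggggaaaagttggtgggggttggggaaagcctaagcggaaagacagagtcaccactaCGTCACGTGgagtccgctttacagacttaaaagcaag
Pla2g4a: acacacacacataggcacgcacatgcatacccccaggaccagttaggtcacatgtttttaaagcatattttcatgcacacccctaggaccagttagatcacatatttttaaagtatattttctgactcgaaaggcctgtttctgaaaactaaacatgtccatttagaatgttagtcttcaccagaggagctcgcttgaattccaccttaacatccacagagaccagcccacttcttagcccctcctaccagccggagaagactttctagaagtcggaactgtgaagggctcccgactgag
Pld1: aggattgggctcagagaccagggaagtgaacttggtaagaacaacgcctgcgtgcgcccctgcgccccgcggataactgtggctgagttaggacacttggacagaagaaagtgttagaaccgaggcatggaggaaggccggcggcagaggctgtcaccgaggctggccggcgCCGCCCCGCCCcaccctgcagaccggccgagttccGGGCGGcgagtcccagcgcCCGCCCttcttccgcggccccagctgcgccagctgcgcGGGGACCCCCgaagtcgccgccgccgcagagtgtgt
Pld2: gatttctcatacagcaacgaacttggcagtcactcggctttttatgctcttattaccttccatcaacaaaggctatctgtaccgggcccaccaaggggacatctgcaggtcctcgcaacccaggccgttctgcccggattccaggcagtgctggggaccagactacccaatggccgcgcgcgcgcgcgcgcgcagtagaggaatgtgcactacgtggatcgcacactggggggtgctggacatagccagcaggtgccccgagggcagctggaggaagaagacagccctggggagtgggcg
The *Ptgs2* window held TGACG, the core of a cyclic AMP response element, read on the minus strand just after the start site, where it overlapped the E-box CACGTG. It also held the GC box GGGCGG and an NF-kB site. The *Pld1* window held GGGCGG in 4 places and an NF-kB site that matched in overlapping registers on both strands. The windows of *Pla2g4a* and *Pld2* held none of the letters searched, which were these together with the AP-1 letters TGANTCA, the TATA box letters TATAAA and the CArG box. Among 32851 windows of the same length, the cyclic AMP core was in 20.8%, the E-box in 7.15%, the GC box in 35.7%, an NF-kB site in 9.38%, AP-1 letters in 7.81%, TATA box letters in 13.6% and a CArG box in 1.63%. These matches describe the letters of the windows, and binding was not measured.

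Of the 9 genes, 3 were called higher and 0 lower in High against Low by limma at p under 0.01 and a log2 change beyond 1, where 28.2% of all 770 genes were called higher and 9.61% lower. In Low against adult, 1 was called higher and 0 lower, against 8.05% and 2.73% of all genes. In High against adult, 3 were called higher and 1 lower, against 29.2% and 7.66% of all genes. With 9 genes, these counts are not far from the shares of the panel. Groups that did not overlap were seen for 3 genes in High against Low, all higher, where 31.3% of all genes were higher and 18.1% lower without overlap. There were 2 in Low against adult, both higher (26.1% of all genes higher and 10.4% lower), and 4 higher and 1 lower in High against adult (35.1% and 15.2%). The median log2 change of the 9 genes was 0.42, 0.09 and 0.55 in the same order, beside 0.26, 0.10 and 0.35 over all genes. These comparisons share samples, the last 2 the adult ones, so their results are not independent of each other.

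**Figure D2:**
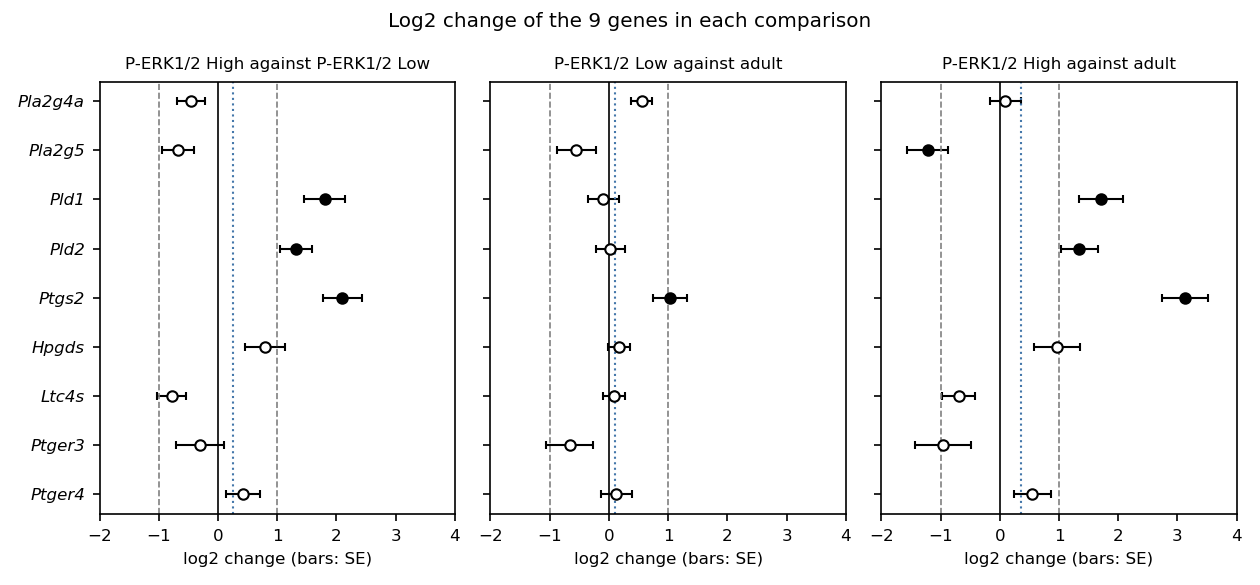
Log2 change ± SE (limma) of the 9 genes in each comparison. Filled points are the called genes, dashed lines mark a log2 change of 1 either way, and the dotted line is the median change of all 770 genes. *Ptgs2* is filled in all 3 comparisons and *Pld1* and *Pld2* in both that involve High.

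Among the phospholipases A2, neither gene was called between the aged groups. The cytosolic enzyme gene *Pla2g4a* was at 134, 165 and 141 in the adult samples, at 227, 203, 174 and 267 in Low and at 164, 190, 116 and 165 in High. All 4 Low samples lay above all 3 adult samples, while the High samples overlapped both other groups. By limma its log2 change was 0.56 ± 0.18 (SE, adjusted p = 0.058) in Low against adult, -0.46 ± 0.24 (adjusted p = 0.12) in High against Low and 0.10 ± 0.26 (adjusted p = 0.78) in High against adult.

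The secreted phospholipase gene *Pla2g5* was at 81.7, 32.6 and 51.9 in adult, at 33.9, 24.5, 40.1 and 45.1 in Low and at 17.0, 20.0, 33.7 and 19.0 in High. It was the 1 gene called lower in High than in adult, by limma at an adjusted p of 0.015, yet no sample of either group was above background, so no fold is given. Above the floor from genes of other lineages were 3 of 3 adult, 3 of 4 Low and 0 of 4 High samples. The counts behind these values were 21 to 36 in adult, 7 to 15 in Low and 14 to 30 in High. The call was lost without adult sample 1 or 10 or without High sample 2, 5 or 8, where the limma p before adjustment was between 0.015 and 0.035. It was also lost with the 6 most stable housekeeping genes (log2 change -0.53), the positive controls (-0.08), unscaled counts (-0.41), a pseudocount of 20 (-0.79), all 4 adult samples (-0.70) and the negative controls subtracted, which left every value of both groups at the lower limit.

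Both phospholipase D genes rose in High. *Pld1*, whose product acts downstream of small GTPases and protein kinase C, was at 31.8, 46.6 and 34.6 in adult and at 44.1, 45.6, 29.4 and 24.6 in Low. It was at 77.9, 236, 92.1 and 138 in High, with every sample above every sample of the other groups. The log2 change against Low was 1.80 ± 0.35 (SE, limma, adjusted p = 0.0013). As no Low sample was above background, the measured difference stands only as at least 1.27-fold higher in High, set against the background of the Low samples. By the floor from genes of other lineages, 3 of 4 High, 2 of 4 Low and 1 of 3 adult samples were above it. Against adult, where 1 of 3 samples was above background, the log2 change was 1.71 ± 0.37 (limma, adjusted p = 0.0040).

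*Pld2*, the isoform with a high basal activity, was at 99.8, 72.2 and 128 in adult, at 91.5, 137, 85.6 and 90.3 in Low and at 191, 385, 198 and 266 in High. The High samples again lay above all others compared, and adult and Low overlapped. The log2 change was 1.32 ± 0.27 (SE, limma, adjusted p = 0.0019) against Low and 1.35 ± 0.32 (adjusted p = 0.0060) against adult. Between Low and adult it was 0.02 ± 0.25 (adjusted p = 0.94). Scaling to the total count ended the calls of both genes, with log2 changes of 0.79 for *Pld1* and 0.30 for *Pld2* in High against Low, and turned the change of *Pld2* against adult to -0.06. With adult sample 11 counted as adult, the changes against adult were 1.01 for *Pld1* and 0.99 for *Pld2*, and neither was called.

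*Ptgs2* encodes cyclooxygenase-2, the inducible form of the enzyme. Its values were 447, 656 and 309 in adult, 979, 775, 757 and 1227 in Low and 4693, 5286, 1938 and 4977 in High. The 3 groups did not overlap, and their order was adult, Low and High. Within High, sample 7 was the lowest, and it also had the lowest total count of that group, 650965.

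The log2 change of *Ptgs2* in High against Low was 2.10 ± 0.33 (SE, limma, adjusted p = 3.3e-04). It was called in 21 of 21 alternative settings, from 1.07 with scaling to the total count to 4.09 with scaling to the positive controls. Without High sample 7 it was 2.44 ± 0.23. Against adult the log2 change was 3.13 ± 0.40 (limma, adjusted p = 1.3e-04). Among the rises of the 770 genes it ranked 11 there, and *Ptgs2* ranked 63 in High against Low. With adult sample 11 counted as adult the change against adult was 2.18 and not called (limma, adjusted p = 0.19).

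The smaller step of *Ptgs2* from adult to Low was a log2 change of 1.03 ± 0.28 (SE, limma, adjusted p = 0.033), close to the fold limit. It lost its call in 15 of 21 alternative settings. Leaving out adult sample 1, adult sample 10, Low sample 3 or Low sample 12 gave log2 changes of 1.02, 0.76, 1.00 and 0.89, of which 0 were called. With adult sample 11 included it was 0.08 (limma, adjusted p = 0.97).

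Of the terminal synthases, neither gene was called in any comparison with the deposited scaling. In High against Low, other scalings called *Hpgds* higher, with log2 changes of 1.56 (6 most stable housekeeping genes), 2.46 (unscaled counts) and 2.77 (positive controls), or *Ltc4s* lower, with -1.04 (median-of-ratios), -1.02 (quantile) and -1.75 (total count). *Hpgds*, whose product makes prostaglandin D2, was at 315, 324 and 442 in adult, at 369, 484, 383 and 377 in Low and at 452, 1432, 492 and 729 in High. The High samples lay above all adult samples, while the lowest of them was under the highest Low sample. By limma the log2 change was 0.79 ± 0.34 (SE, adjusted p = 0.068) against Low and 0.96 ± 0.39 (adjusted p = 0.062) against adult. Low and adult differed by 0.17 ± 0.18 on the log2 scale (adjusted p = 0.52).

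High sample 5 was the highest of its group for *Hpgds*, and also for *Pla2g4a*, *Pld1*, *Pld2*, *Ptgs2*, *Ptger3* and *Ptger4*. It had the highest total count of all samples, 1539936. Without it the log2 change of *Hpgds* against Low was 0.44 by limma, and the changes of *Pld1*, *Pld2* and *Ptgs2* were 1.49, 1.11 and 1.96, each still called. Whether the depth of that sample bears on these values was not tested.

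*Ltc4s* was at 29.5, 25.6 and 34.6 in adult, at 37.3, 31.6, 34.8 and 24.6 in Low and at 13.4, 20.7, 24.7 and 15.2 in High. The High samples were under all adult samples, and only the highest of them reached into the Low range. The log2 change against Low was -0.78 ± 0.25 (SE, limma, adjusted p = 0.019), within the fold limit. The counts ran the other way, with 6 to 13 in Low and 11 to 29 in High, all under the background.

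Neither EP receptor gene was called in any comparison with the deposited scaling. *Ptger4*, the gene of the EP4 receptor, was at 61.3, 51.2 and 37.1 in adult, at 40.7, 52.6, 77.6 and 49.2 in Low and at 60.9, 117, 61.8 and 60.8 in High. It was above background in 4 of 4 High samples, 1 of 4 Low samples and 1 of 3 adult samples, and all groups overlapped. The floor from genes of other lineages gave the other order, with 1 of 4, 4 of 4 and 2 of 3 samples above it. The log2 change in High was 0.42 ± 0.29 (SE, limma, adjusted p = 0.23) against Low and 0.55 ± 0.31 (adjusted p = 0.17) against adult.

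*Ptger3*, the gene of the EP3 receptor, was at 56.7, 19.8 and 34.6 in adult, at 20.3, 35.1, 13.4 and 20.5 in Low and at 7.3, 27.9, 25.8 and 15.2 in High. Only High sample 5 was above background. Its groups overlapped in all comparisons, and none was called.

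Ratios of 2 genes within a sample depend little on how that sample was scaled. The log2 ratio of *Ptgs2* to *Hpgds* was 0.50, 1.02 and -0.52 in adult, 1.40, 0.68, 0.98 and 1.70 in Low and 3.37, 1.88, 1.98 and 2.77 in High. The aged groups did not overlap, and the difference of 1.31 between them had p = 0.029 in an exact two-sided permutation test, the smallest that 4 against 4 samples allow. After Benjamini-Hochberg adjustment over the 15 tests of 5 ratios it was 0.21. The other ratios were those of *Pla2g4a* to *Pla2g5*, *Pld1* to *Pld2*, *Ptger3* to *Ptger4* and *Hpgds* to *Ltc4s*, and no adjusted p was below that value.

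The log2 ratio of *Pld1* to *Pld2* differed by 0.48 between High and Low, with overlapping samples (exact permutation p = 0.086, adjusted 0.21). In Low, *Pld1* was above background in 0 of 4 samples and *Pld2* in 2 of 4, so the Low ratios are of values at the noise of the assay. The ratio of *Hpgds* to *Ltc4s* was 1.57 higher in High than in Low (exact permutation p = 0.029, adjusted 0.21), with *Ltc4s* under the background throughout. Against adult, 4 and 3 samples cannot give a p below 0.057.

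**Figure D3:**
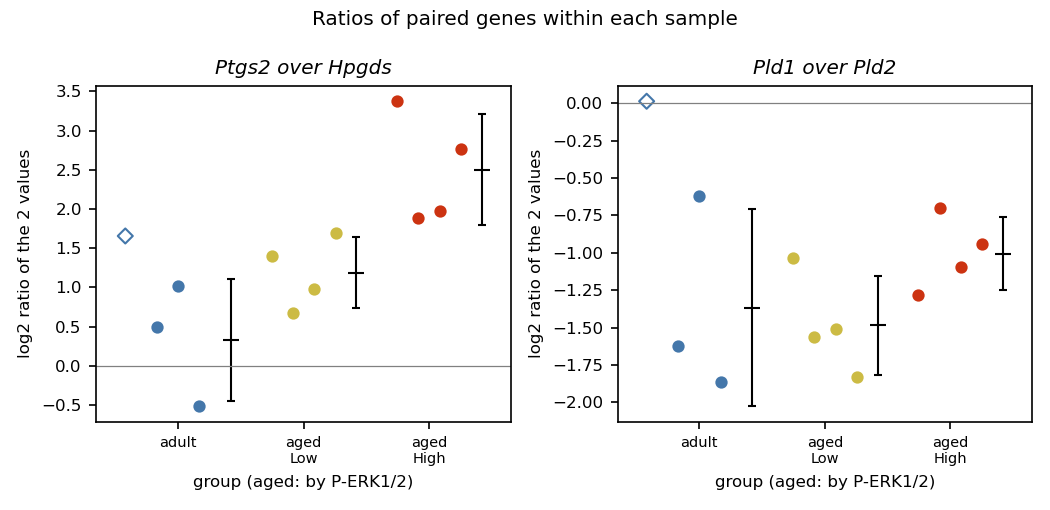
Log2 ratio of *Ptgs2* to *Hpgds* and of *Pld1* to *Pld2* in each sample, with the mean ± SD of each group in black and adult sample 11 as an open diamond. The *Ptgs2* to *Hpgds* ratio of every High sample (1.88 to 3.37) is above that of every Low sample (0.68 to 1.70), and the *Pld1* to *Pld2* ratios overlap, with *Pld1* above background in 0 of 4 Low samples.

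The levels in High and Low also depend on the scaling, since it sets the median change of all genes between them. That median was 0.26 with the 13 housekeeping genes, 1.02 with the 6 most stable of them, -0.01 with median-of-ratios scaling, -0.11 with quantile normalization, -0.75 with scaling to the total count and 2.14 with the positive controls. The share of calls that were higher in High moved with it, from 74.6% to 98.9%, 58.4%, 51.5%, 15.9% and 100%. Relative to the median, *Ptgs2* was higher by 1.68 to 1.94, *Pld1* by 1.53 to 1.57 and *Pld2* by 1.05 to 1.13 under these scalings, and *Hpgds* by 0.28 to 0.63. *Pla2g4a* was at -0.72 to -0.63 relative to the median. Except for quantile normalization, these scalings multiply whole samples, so subtracting the median takes out their shift by construction, and the narrow ranges are no sign of stability.

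**Figure D4:**
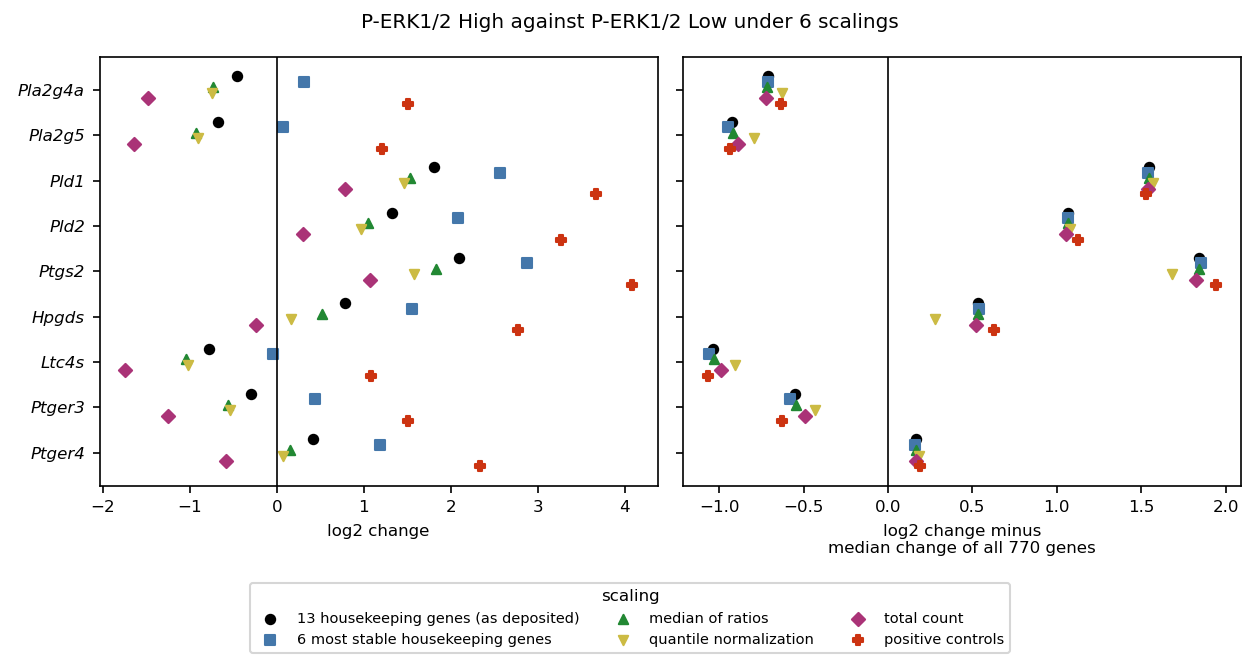
Log2 change of the 9 genes in High against Low under 6 scalings, as computed (left) and after subtraction of the median change of all 770 genes (right). The changes spread widely on the left. On the right *Ptgs2* lies between 1.68 and 1.94, a narrow range that the subtraction gives by construction except for quantile normalization (1.68).

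The summed astrocyte and endothelial markers were also higher in High. The summed values of 5 astrocyte markers were 1377 to 2111 in High, 543 to 775 in Low and 427 to 628 in adult, with 4 to 5, 2 and 2 to 3 of them above background. Those of 6 endothelial markers were 622 to 1257, 207 to 312 and 286 to 413, with 4 to 5, 0 to 1 and 1 to 3 above background. Those of 8 T and NK cell markers were 270 to 1031, 148 to 207 and 115 to 252, and those of 5 monocyte and neutrophil markers 307 to 897, 369 to 468 and 672 to 1070, the last highest in adult. In High against Low, 3 of 5 astrocyte, 4 of 6 endothelial, 2 of 8 T and NK cell, 1 of 5 monocyte and neutrophil, 1 of 4 B cell and 0 of 5 oligodendrocyte markers were called higher and 0 of them lower, and of 5 neuron markers 2 were called higher and 2 lower, beside 28.2% and 9.61% of all genes. In High against adult, 3 of 5 astrocyte markers were called higher and 0 lower, beside 29.2% and 7.66% of all genes. Of the 6 endothelial markers 2 were called higher and 1 lower there, and of the 5 monocyte and neutrophil markers 0 and 2. The sort on YFP and CD45 was meant to keep microglia alone, and the part of these markers in the results was not tested.

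*Hpgds* and *Ltc4s* are also known from mast cells, and *Hpgds* and *Ptgs2* from other macrophages. Of 5 mast cell markers, *Cpa3*, *Tpsb2* and *Ms4a2* were above background in 0 samples of either aged group, and *Hdc* and *Kit* were above it in 3 of 4 High samples. Both were called higher in High against Low, *Hdc* at 36.5 to 119 against 6.8 to 16.1 and *Kit* at 39.0 to 97.9 against 20.3 to 32.8, and *Hdc* was called higher in High against adult too. The 1 marker called in Low against adult was *Cpa3*, with 0 samples above background. Of 3 border macrophage markers, *Cd163* was called higher in High against Low, above background in 4 of 4 High and 0 of 4 Low samples at 59.5 to 75.5 and 24.6 to 37.3. *Siglec1* overlapped, at 55.0 to 114 and 54.2 to 94.7, and *Ms4a4a*, with 0 samples above background, was at 15.01 to 32.6 in High, 21.0 to 41.0 in Low and 33.8 to 59.3 in adult. Against adult, *Cd163* was called higher and *Ms4a4a* lower in High. Their part in the change of *Hpgds* was not tested.

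By Pearson correlation of log2(value + 1) over the 11 samples, the panel genes most like *Ptgs2* were *Cd109* (0.99), *Emp1* (0.99) and *Gja1* (0.98), the last of which is an astrocyte marker. *Gja1* was at 575 to 1081 in High and 325 to 372 in Low. Most like *Pld1* were *Pik3cb* (0.96), *Itgav* (0.95) and *Zfp367* (0.95), and most like *Pld2* were *Ptprc* (0.96), *Zfp367* (0.95) and *Coa5* (0.95). *Hpgds* was most like *C1qb* (0.96), *Trim47* (0.94) and *Hmgb1* (0.94), and *Pla2g4a* most like *Ltbr* (0.98), *Ehmt2* (0.97) and *Rps9* (0.95). *Ptger4* was most like *Fgf13* (0.84), *Mavs* (0.79) and *Siglecf* (0.77). These values describe samples that share 3 groups and differ in depth by group.

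The neighbours of the 9 genes in their pathways were followed through lists, whose counts stand beside 28.2%, 8.05% and 29.2% of all genes called higher in High against Low, Low against adult and High against adult, and 9.61%, 2.73% and 7.66% called lower. Of 5 regulators of phospholipase A2, 2 were called higher and 0 lower in High against Low, 2 and 0 in Low against adult and 3 and 0 in High against adult. *Anxa1*, which encodes the phospholipase A2 inhibitor annexin A1, had the largest change in each, with log2 changes of 1.77 ± 0.45, 1.78 ± 0.31 and 3.55 ± 0.55 (SE, limma, adjusted p = 0.0065, 0.0058 and 4.8e-04). The second gene in each was *S100a10*, a partner of annexin A2, named after its values were seen, and the third against adult was the kinase gene *Mapk14*. The list's median log2 changes were 0.07, 0.98 and 1.05.

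Of 5 partners of phospholipase D, 2 were called higher and 0 lower in High against Low and also against adult, and 0 were called in Low against adult. With 28.2% and 29.2% of all genes called higher, 2 of 5 is not a result about the list. *Rala*, a small GTPase gene whose product binds phospholipase D1, had a log2 change of 2.75 ± 0.20 (SE, limma, adjusted p = 4.9e-06) against Low and 2.77 ± 0.25 (adjusted p = 2.9e-05) against adult. The other was *Prkce*, a protein kinase C gene, named after its values were seen. The median log2 changes were 0.45 in High against Low, 0.27 in Low against adult and 0.85 in High against adult.

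Of 10 genes that induce *Ptgs2* or act upstream of it, 1 was called higher and 1 lower in High against Low, with a median log2 change of -0.16. The lower one was *Tnf*, the gene of the cytokine tumor necrosis factor, at 263 to 548 in High and 1189 to 1358 in Low, a log2 change of -1.57 ± 0.26 (SE, limma, adjusted p = 4.5e-04). The higher one was *Rela*, an NF-kB subunit gene named after its values were seen. In Low against adult 3 were called higher and 0 lower with a median of 0.22, *Fos* leading with 1.80 ± 0.18 (adjusted p = 6.0e-04) by limma, followed by *Tnf* and *Egr1*. In High against adult 2 were called higher, *Fos* with 1.77 ± 0.53 (limma, adjusted p = 0.019) and *Rela*, and 0 lower, with a median of 0.38.

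*Tnf* and *Ptgs2* thus ran in opposite directions between the aged groups with the deposited scaling, and the log2 change of *Tnf* turned to 0.42 with scaling to the positive controls and 0.11 with unscaled counts. Those scalings moved all genes, with median changes of 2.14 and 1.86, so that *Tnf* lay below the median and *Ptgs2*, at 4.09 and 3.78, above it under both. *Fos*, an immediate early gene, was at 394 in High sample 7, the sample with the lowest *Ptgs2* of its group, and reached 2270 in that group.

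Of 8 genes of cyclic AMP signalling below the EP receptors, 1 was called higher and 2 lower in High against Low, with a median log2 change of -0.47. The higher one was the transcription factor gene *Creb1* at 2.01 ± 0.39 (SE, limma, adjusted p = 0.0013), and the lower ones were the protein kinase A subunit genes *Prkaca* and *Prkar1a*, named after their values were seen. In Low against adult 1 was called higher, the subunit gene *Prkar2b* at 1.24 ± 0.21 (limma, adjusted p = 0.0047), and 0 lower, with a median of 0.55. In High against adult 1 was called higher, *Creb1* at 1.79 ± 0.46 (limma, adjusted p = 0.0090), and 1 lower, *Prkar1a*, with a median of 0.10.

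Both genes of glutathione supply and transfer were called higher in High against Low and against adult, and 0 of 2 in Low against adult, with medians of 1.16, 1.08 and -0.08. *Gstm1*, a glutathione S-transferase gene, had log2 changes of 1.28 ± 0.28 and 1.15 ± 0.25 (SE, limma, adjusted p = 0.0028 and 0.0041), the first standing only as at least 1.08-fold because no Low sample was above background. The other was *Gclc*, which encodes the catalytic subunit of glutamate-cysteine ligase. Of 6 other genes of phospholipid and lysolipid mediators, 0 were called higher and 1 lower, 1 higher and 0 lower, and 0 either way in High against Low, Low against adult and High against adult, with medians of 0.12, -0.16 and -0.08. The called gene was *Gdpd2*, a glycerophosphodiester phosphodiesterase gene with 0 samples above background in the 3 groups.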

How the data were processed

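RNA of sorted microglia was measured in 12 samples with a NanoString panel of 770 genes, 8 negative and 6 positive control probes. The authors deposited 1 table of normalized signal, made in nSolver by scaling each sample so that the geometric mean of 13 housekeeping genes was 173 in all samples, with no background subtracted. No nSolver version is given in the sources used here. Every column could be mapped through its sample number, and 0 were left over. Dividing each column by its scaling factor gave whole counts for 100% of gene values within 0.1, which set the depth of each sample, and the 3 or 4 samples a group limit the precision. Of the gene names, 763 matched a current RefSeq symbol and 7 a synonym, and all 9 genes matched.

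Groups followed the labels, and adult sample 11, marked as excluded, entered only as an alternative. The label for sample type reads aged for all samples, and age was taken from the age label. High against Low (n = 4 and 4), Low against adult (n = 4 and 3) and High against adult (n = 4 and 3) were each fitted on log2(value + 1) over all 770 genes without a filter, using limma 3.58.1 and R 4.3.3. A call needed p under 0.01 and a log2 change beyond 1, the limits the study used, and p-values were adjusted over all genes by the Benjamini-Hochberg method. A gene was above background when its count exceeded the mean plus 2 SD of the sample's negative controls, a definition chosen after seeing the data. Where no sample of the lower group was above background, the fold is a lower bound against that group's background. Ratios within samples were compared by exact two-sided permutation tests (scipy 1.17.1).

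The 9 genes, the lists of pathway genes and cell markers and the tests were chosen with earlier results of these data known. The text names the 9 genes in every comparison, the called gene with the largest change of each pathway list, and the 3 panel genes most correlated with each member that was above a floor, the second highest count among 10 off-lineage genes, in at least 6 of 11 samples, except *Pla2g5*, which met this but had 0 samples above the negative controls. The lists cover other phospholipid and lysolipid mediators, phospholipase A2 regulators, phospholipase D partners, cyclic AMP signalling, *Ptgs2* inducers and glutathione supply. Alternatives tried were other scalings, a pseudocount of 0.1 or 20, genes with a mean of 50 or more only, background subtraction, a spread shared by 11 samples, an adjusted p under 0.05 in place of p under 0.01, all 4 adult samples and each sample left out. The fit was tested on simulated data with 200 of 770 genes changed by 2 log2 units, of which it recovered 100% for High against Low, 99% for Low against adult and 100% for High against adult, with 1, 1 and 5 false calls. Promoter windows are those of RefSeq on GRCm38.p6. The deposited table names no genome build, and no coordinates of its probes were used.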

Additional observations from a re-analysis of the deposited data

Results flagged for a closer look

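Adult sample 11, which the labels mark as excluded, had values above all 3 kept adult samples for 6 of the 9 genes, and it was counted as adult only in the alternative with all 4 adult samples. *Ptgs2* was at 6191 in it against 309 to 656 in the kept adult samples, *Hpgds* at 1963 against 315 to 442, and *Pld1* at 264.5 against 31.8 to 46.6. *Pld2* was at 262 against 72.2 to 128, *Pla2g4a* at 200.9 against 134 to 165, and *Ptger4* at 96.2 against 37.1 to 61.3. Its total count was 1464449, in the range of the High samples, and the geometric mean of its positive control probes was 286, against 954 to 1460 in the other 11 samples. Its *Ptgs2*, *Pld1*, *Hpgds* and *Pla2g4a* values were above those of every High sample. The summed astrocyte markers were 2121 in it, also above the High samples. Whether RNA quality bears on these values was not tested.

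In 3 of the 18 groups of 4 aged samples, 1 sample lay far from the other 3, by a test that chance alone passes in about 1 of 20 groups. *Pld2* was at 137 in Low sample 6, where the other samples of the group were at 85.6 to 91.5. *Hpgds* was at 484 in the same sample, with the others at 369 to 383. *Ptger4* was at 117 in High sample 5, with the others at 60.8 to 61.8.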

How the results depend on the processing

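*Ptgs2* kept its call in High against Low under every alternative run. *Pld1* lost its call there with scaling to the total count (0.79) and with the off-lineage floor subtracted (2.15 ± 1.91 SE), and *Pld2* with these (0.30 and 1.19 ± 0.45) and with quantile normalization (0.97, just inside the fold limit). Gained calls in High against Low were, beside those of *Hpgds* and *Ltc4s* given in the report, *Ptger4* higher with the 6 most stable housekeeping genes (1.18), unscaled counts (2.04), the positive controls (2.33) and the negative controls subtracted (4.42), and *Pla2g4a* (-1.48) and *Pla2g5* (-1.64) lower with the total count. *Pla2g4a* was called higher with unscaled counts and the positive controls, and *Pla2g5* and *Ptger3* with the positive controls, as given below. In High against adult, calls were gained by *Hpgds* and *Ptger4* in 3 alternatives each, all higher, and by *Ltc4s* and *Ptger3* in 2 each and *Pla2g4a* in 1, all lower, and in Low against adult by *Pla2g5* and *Ptger3* in 2 each, all lower. Against adult, *Pld2* also lost its call with median-of-ratios scaling (0.96), quantile normalization (0.85) and both background subtractions (1.36 and 3.30), and *Pld1* with the off-lineage floor subtracted (2.57). The changes of *Pla2g5*, *Ltc4s* and *Ptger3* rest on counts under the background in nearly every sample, those of the deeper High group included. No paired analysis was possible because the labels give each sample its own number, so that no replicate number is shared between groups. By the methods, High and Low cells were separated from aged microglia by cell sorting, so High and Low samples may share mice. The tests treated all samples as independent. The planned count model in edgeR was not run. Where a value below turned direction, the cause was not tested beyond the change of setting itself.

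The number of called genes in High against Low was 291, and 596 with unscaled counts and 659 with scaling to the positive controls. In Low against adult it was 83, and 240 with unscaled counts, 225 with the positive controls and 34 with all 4 adult samples. In High against adult it was 284, and 49 with all 4 adult samples. Leaving out each sample gave 235 to 310, 75 to 95 and 225 to 303 called genes. The difference in the log2 ratio of *Ptgs2* to *Hpgds* between High and Low was 1.02 to 1.52 with each sample left out and that of *Hpgds* to *Ltc4s* 1.29 to 1.88, all with an exact permutation p of 0.057, the smallest that 3 against 4 samples allow. The *Ptgs2* to *Hpgds* difference between High and adult was 1.84 and passed p under 0.05 with all 4 adult samples. The ratio of *Hpgds* to *Ltc4s* in Low against adult turned to -0.68 with all 4 adult samples and ran from -0.013 to 0.19 with each sample left out, that of *Pld1* to *Pld2* ran from -0.36 to 0.26, and that of *Pla2g4a* to *Pla2g5* in High against Low turned to -0.015 with a pseudocount of 20.

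The following log2 changes turned direction. In High against Low, the 6 most stable housekeeping genes gave 0.31 for *Pla2g4a*, 0.073 for *Pla2g5* and 0.44 for *Ptger3*. The positive controls gave 1.51 for *Pla2g4a*, 1.21 for *Pla2g5*, 1.08 for *Ltc4s*, 1.51 for *Ptger3*, 0.42 for *Tnf* and 0.76 for *Gdpd2*. Unscaled counts gave 1.21 for *Pla2g4a*, 0.92 for *Pla2g5*, 0.80 for *Ltc4s*, 1.24 for *Ptger3*, 0.11 for *Tnf* and 0.48 for *Gdpd2*. Scaling to the total count gave -0.24 for *Hpgds* and -0.59 for *Ptger4*, the subtracted off-lineage floor -3.14 for *Ptger4*, the subtracted negative controls 0.073 for *Pla2g4a*, and leaving out High sample 2 0.074 for *Ptger3* (-0.53 to 0.074 with each sample left out).

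In High against adult, scaling to the total count gave -1.31 for *Pla2g4a*, -0.45 for *Hpgds*, -0.061 for *Pld2*, -0.84 for *Ptger4* and -0.25 for *Gstm1*. *Pla2g4a* was at -0.018 with all 4 adult samples, -0.29 with median-of-ratios scaling, -0.23 with quantile normalization and -1.75 with the off-lineage floor subtracted, and that floor gave -1.45 for *Ptger4*. The positive controls gave 0.43 for *Ltc4s* and 0.17 for *Ptger3*, and unscaled counts 0.10 for *Ltc4s*.

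In Low against adult, *Pld2* was at -0.034 with the 6 most stable housekeeping genes, -0.095 with median-of-ratios scaling, -0.081 with quantile normalization, -0.36 with the total count, -0.81 unscaled, -0.77 with the positive controls, -2.20 with the negative controls subtracted, -0.33 with all 4 adult samples, -0.13 without Low sample 6 and -0.19 without adult sample 4 (-0.19 to 0.22 with each sample left out). *Hpgds* was at -0.44 with all 4 adult samples, -0.053 with quantile normalization, -0.22 with the total count, -0.68 unscaled and -0.64 with the positive controls. *Ptger4* was at -0.11 with all 4 adult samples, -0.48 with the negative controls subtracted, -0.25 with the total count, -0.69 unscaled, -0.64 with the positive controls, -0.048 without Low sample 9 and -0.066 without adult sample 10 (-0.066 to 0.29 with each sample left out). *Ltc4s* was at -0.025 with median-of-ratios scaling, -0.29 with the total count, -0.70 unscaled, -0.65 with the positive controls and -0.011 without adult sample 4 (-0.011 to 0.21 with each sample left out). *Pla2g4a* was at -0.29 unscaled and -0.25 with the positive controls. *Pld1* was at 0.41 with the off-lineage floor subtracted, 0.14 with quantile normalization and 0.068 without Low sample 12 and 0.067 without adult sample 4 (-0.22 to 0.068 with each sample left out).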
